A study of Mus musculus with 8 samples.

Results

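The comparison set the 2 liver libraries from mice given bisphenol A (BPA) against the 2 liver libraries from mice not given it. These are 4 of the 8 libraries of the series, in which livers and uteri of female mice of the outbred CD-1 stock were profiled by QuantSeq, which sequences near the polyadenylated 3' end of each transcript. All animals had been ovariectomized at 6 weeks of age, 1 week before treatment, so every group lacks ovarian estrogen. The control liver received neither agent, the BPA liver received BPA at 200 mg/kg/day, the KRG liver received Korean red ginseng at 1.2 g/kg/day, and the combined liver received both, each by mouth daily for 7 days. Each side therefore holds 1 library with ginseng and 1 without it. The 2 libraries of a side are not replicates of 1 group, and the spread within a side includes ginseng. Whether 1 animal or several gave the RNA of a library is not stated in the labels.

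BPA is a building block of plastics and a ligand of estrogen receptors. The liver clears it mainly by coupling it to glucuronic acid, a reaction fed by UDP-glucose dehydrogenase and carried out by UDP-glucuronosyltransferases. Hepatocytes also sense foreign compounds through the nuclear receptors CAR and PXR, which switch on cytochrome P450 genes, and sense electrophiles through the transcription factor NRF2, which switches on glutathione transferases and glutathione synthesis. Protein folding load is sensed separately, in the endoplasmic reticulum (ER) by the unfolded protein response and in the cytosol by heat shock factors.

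Levels are in CPM, that is, counts brought to 1 library size, in the order control, BPA, KRG and combined. A difference is the mean log2(CPM + 1) of the libraries with BPA minus that of the libraries without it, a scale that understates the change of low genes. The gap is the distance on that scale between the nearest libraries of the 2 sides, and a gene is called separated when both libraries of one side lie beyond both of the other. Of 6705 genes averaging 10 CPM or more in liver, 2608 (38.9%) were separated, 1450 (21.6%) of them higher with BPA and 1158 (17.3%) lower. Most of these separations were narrow, with a median gap of 0.11 among the higher genes and -0.12 among the lower genes. A gap of at least 1, which is 2-fold between the nearest libraries, was reached by 7 genes higher with BPA (0.104%) and 12 genes lower (0.179%).

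No gene passed edgeR's quasi-likelihood test with Benjamini-Hochberg adjustment, where the smallest adjusted p was 0.416, and 445 genes (6.64%) had an unadjusted p under 0.05, of which 218 were higher (3.25%) and 227 lower (3.39%). DESeq2 on the same libraries called 15 genes higher and 26 lower, all 41 of them separated. With ginseng as a further term DESeq2 called 12 higher and 14 lower, and 19 of the 41 were called by both fits. For a single gene the smallest two-sided exact permutation p with 2 libraries against 2 is 0.333. The values below are therefore descriptions of 4 libraries, and the counts of list members are read against 21.6% and 17.3%.

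The liver libraries held 12372073 to 15290950 counts, so that 10 CPM stands for 122 to 156 counts and a counting error of 8.0% to 9.05%. As whole profiles the libraries did not fall into the 2 sides, since the standard deviation of log2 ratios was 0.52 between the 2 libraries with BPA, 0.40 between the 2 without it, and 0.42 to 0.54 across sides. The 12 measured hepatocyte markers summed to 56127 to 59313 CPM in every library, with 4 separated higher and 4 lower. Markers of 2 other tissues and of blood cells did differ between libraries. The 19 skeletal muscle markers summed to 217, 15.2, 602 and 8.21 CPM, and the 20 acinar pancreas markers in the table to 235, 2034, 157 and 177 CPM. Cela1 made up most of the acinar sum outside the BPA library, and the other 19 summed to 2.05, 1504, 11.2 and 7.13 CPM. The 9 erythroid markers in the table summed to 3668, 7808, 5413 and 1707 CPM. The 11 neutrophil markers in the table summed to 13.6, 24.4, 51.7 and 141 CPM, highest in the combined library. Islet and lymphocyte lists had 0 members above 10 CPM.

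**Figure D1:**
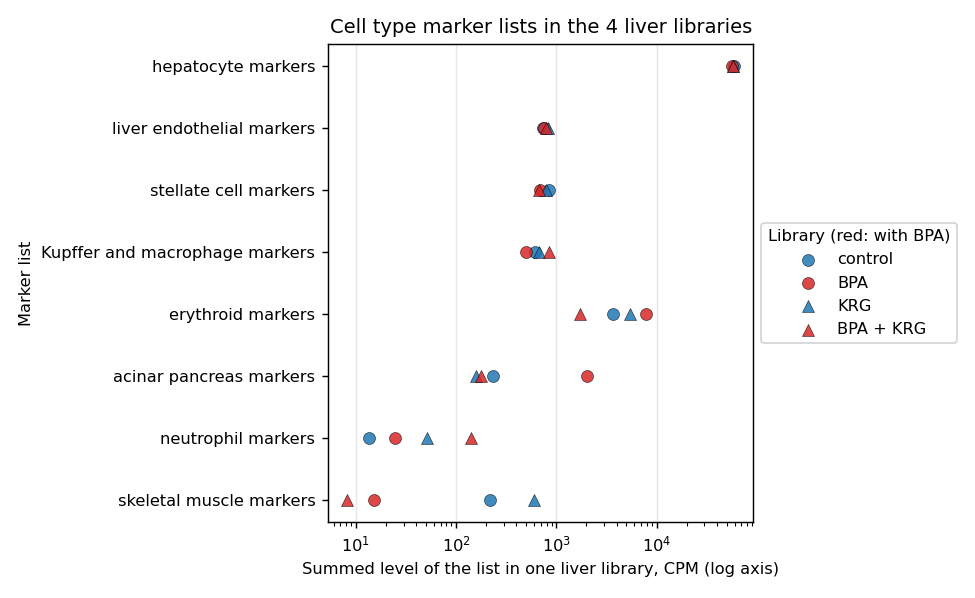
Summed level of 8 cell type marker lists (CPM, log axis) in each of the 4 liver libraries, with 1 point per library, circles without ginseng, triangles with it, and red for BPA. Hepatocyte markers lie together at 56127 to 59313 CPM, skeletal muscle markers are at 15.2 and 8.21 CPM with BPA against 217 and 602 CPM without it, and acinar pancreas markers stand high in the BPA library alone, at 2034 CPM.

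Glutathione conjugation held the clearest separations among the higher genes. Gstm3, a mu-class glutathione transferase, stood at 42.1, 152, 37.6 and 104 CPM, a fitted log2 difference of 1.68 ± 0.22 (SE). Its neighbour in the same gene cluster, Gstm1, stood at 465, 1762, 536 and 1281 CPM (1.60 ± 0.22). Both genes lie on the minus strand of chromosome 3 (mm10, 107963696 to 107969283 for Gstm3 and 108012255 to 108017973 for Gstm1). Gsta2, an alpha-class enzyme, stood at 9.09, 89.2, 11.7 and 25.9 CPM, so the BPA library was well above the combined library while both exceeded the 2 libraries without BPA. These transferases have near-identical copies, and how reads with several matches were counted is not given in the sources used here, so the split between copies is uncertain. Of 18 measured transferases 7 were separated higher and 1 lower, the lower one being microsomal Mgst1 (1713, 1325, 1784 and 1396 CPM), with a median difference of 0.21 against 0.02 over all genes. The member medians of the 2 pairs were unequal, at 0.27 for BPA minus control and 0.045 for combined minus KRG.

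The enzymes that make glutathione and NADPH were separated in the same direction. Of 14 measured genes of glutathione and NADPH supply 9 were higher with BPA and 0 were lower, with a median difference of 0.23. Cystathionine beta-synthase, Cbs, which starts the route from homocysteine to cysteine, stood at 108, 155, 83.3 and 170 CPM. Cth, the next enzyme of that route, stood at 193, 334, 204 and 284 CPM. The catalytic and modifier subunits of glutamate-cysteine ligase, Gclc and Gclm, were also higher with narrow gaps, at 83.7, 106, 78.7 and 108 CPM for Gclc. Slc3a1, the heavy subunit of a cystine transporter, stood at 6.53, 17.9, 10.6 and 26.6 CPM. It overlaps Prepl on the opposite strand, which stood at 10.1, 20.8, 13.7 and 30.5 CPM, and without stated strand use the reads of this pair cannot be told apart.

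Of 18 measured NRF2 targets 11 were separated higher and 1 lower, with a median difference of 0.36. Besides the transferases and Gclc, the list included Nqo1, a quinone reductase, at 4.61, 13.2, 9.34 and 19.5 CPM, and the epoxide hydrolase Ephx1 at 48.1, 113, 51.0 and 67.5 CPM. Srxn1, which repairs oxidized peroxiredoxins, stood at 102, 138, 75.8 and 127 CPM. The members were not uniform. Txn1, Txnrd1, Hmox1, Me1, Osgin1 and Blvrb had overlapping sides, and the carboxylesterase Ces2g was lower with BPA at 63.2, 53.7, 76.1 and 44.9 CPM. The list was chosen with earlier results of these libraries known and is no independent evidence of its direction, and it shares members with the transferase and glutathione lists.

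Glucuronidation, the route by which BPA itself is cleared, had 5 of 12 measured members separated higher and 0 lower, with a median difference of 0.16. The summed level of the list was 4263, 4874, 4119 and 3922 CPM, so it was highest in the BPA library and lowest in the combined library. Ugdh, which makes UDP-glucuronic acid, stood at 36.8, 74.2, 35.6 and 48.6 CPM (0.76 ± 0.23). Slc35d1, which carries UDP-glucuronic acid into the ER, stood at 160, 258, 157 and 178 CPM. Among the transferases themselves, Ugt2b35 stood at 45.5, 80.1, 39.2 and 59.2 CPM and Ugt2b5 at 214, 371, 209 and 237 CPM, while Ugt2b1, Ugt2b34 and Ugt2a3 had overlapping sides. In each of these 4 separated genes the BPA library was the highest of the 4 and the combined library lay between it and the libraries without BPA.

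The promoter of Ugdh is shown as 1 of the NRF2 list genes that were separated higher in both liver and uterus and carry the core of the antioxidant response element, the sequence NRF2 binds. Htatip2 is another, and its promoter is not shown because its entry could not be matched to its transcripts. The core searched was TGAC and GC with 3 bases between them, on both strands in the 250 bases before the start of RefSeq promoters (GRCm38.p6). It occurs in 4 of the 16 NRF2 list members with a promoter entry (Gclm, Htatip2, Txnrd1 and Ugdh) and in 11.515% of all 27025 genes with one. The share was 14.28% among genes measured in liver, and the core occurs in 2 of 9 heat shock and 3 of 15 ER chaperone members with an entry. Gstm1 and Gstm3, also in the NRF2 list, have an entry without a match. Capitals mark the 2 matches in chr5:65435908-65435994, minus strand, the second of them on the opposite strand. GENCODE places the start of the gene 107 bases upstream of the RefSeq start, at 65435949, so the second match lies within the gene by that annotation.
Ugdh: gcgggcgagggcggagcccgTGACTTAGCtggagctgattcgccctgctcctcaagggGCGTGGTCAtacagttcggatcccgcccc
A match is a description of letters and not a measured binding site.

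The CAR and PXR list had 5 of 21 measured members separated higher and 4 lower, with a median difference of -0.02. Its 2 pairs were opposite, with member medians of -0.19 for BPA minus control and 0.48 for combined minus KRG. Cyp2b10, the classical CAR target in mouse, stood at 27.3, 63.4, 27.6 and 48.0 CPM (1.02 ± 0.18), so the 2 libraries without BPA were nearly level and both with BPA lay above them. Cyp2c29 stood at 993, 1725, 687 and 1237 CPM, with a narrower gap of 0.32. Cyp3a11, the classical PXR target, was lower with BPA at 1335, 959, 1035 and 934 CPM, a gap of -0.11. Alas1, the first enzyme of heme synthesis, was also lower at 202, 165, 183 and 111 CPM.

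Bile acid handling had 8 of 23 measured members separated higher and 3 lower, with a median difference of 0.14. Abcb11, the bile salt export pump of the canalicular membrane, stood at 129, 321, 161 and 269.6 CPM (1.02 ± 0.18). Acox2, the peroxisomal oxidase that shortens the bile acid side chain, stood at 105, 195, 123 and 195 CPM, so the 2 libraries with BPA were level. Abcc3, an exporter of conjugates into blood, stood at 44.1, 57.1, 33.6 and 59.8 CPM. Nr0b2 (SHP), a repressor of bile acid synthesis, was lower at 59.9, 49.2, 82.8 and 36.5 CPM. Cyp7a1 and Cyp8b1, enzymes of the classical synthesis pathway, and Nr1h4 (FXR), the bile acid receptor, had overlapping sides.

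Abcb11 is a known target of FXR, which binds inverted repeats spaced by 1 base, and its promoter is shown for that reason. The pattern GGNCA and TGANC with 1 base between them, where N is any base, read on both strands of the same 250 bases, occurs in 2 of 17 bile acid genes with a promoter entry (Abcb11 and Slco1b2) and in 1.077% of all genes with one. Slco1b2 had overlapping sides. Capitals mark the match in chr2:69342648-69342698, minus strand.
Abcb11: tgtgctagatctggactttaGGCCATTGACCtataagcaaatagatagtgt

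Amino acid catabolism had 13 of 33 measured members separated higher and 4 lower, with a median difference of 0.16. Hal, the histidine-degrading enzyme of periportal hepatocytes, stood at 263, 388, 258 and 399 CPM, a gap of 0.56. Cbs and Cth are members of this list too. The glycine-handling genes Shmt1, Gnmt and Gldc were separated higher with gaps of 0.17, 0.12 and 0.12. Tdo2, Gpt2 and Tat were among those separated lower, with Gpt2, a mitochondrial alanine aminotransferase, at 344, 302, 406 and 252 CPM.

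Of 29 measured acute phase genes 10 were separated higher and 1 lower, with a median difference of 0.27. The summed level of the list was 32968, 40012, 41186 and 47070 CPM, so the KRG library lay above the BPA library. Orm3, an orosomucoid, stood at 19.1, 46.0, 30.2 and 69.2 CPM, and Lbp, which binds bacterial lipopolysaccharide, at 162, 215, 165 and 280.4 CPM. Hamp2, a hepcidin gene, was the lower member at 244, 165, 265 and 168 CPM, a gap of -0.53. Its paralog Hamp was separated the other way by 0.06, at 217, 225, 217 and 381 CPM, and only the combined library was far from the rest. Of 30 measured proteasome subunits 13 were separated higher and 2 lower with a median difference of 0.09, among them Psmc4, an ATPase of the regulatory particle, at 22.7, 36.3, 21.3 and 29.4 CPM.

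The other genes among the 15 higher had varied roles. Gadd45g, a growth-arrest gene, stood at 7.55, 34.5, 14.4 and 82.4 CPM (2.42 ± 0.53). Igfbp1, a secreted protein that binds insulin-like growth factors and that insulin represses, stood at 67.7, 145, 51.8 and 177 CPM (1.43 ± 0.20). In both genes the combined library was the highest of the 4. Sgk2, a kinase, stood at 55.6, 134, 25.4 and 105 CPM. Slc30a10, a manganese exporter, stood at 14.98, 26.8, 14.4 and 27.4 CPM, with the libraries of each side nearly level. Fpgs, which adds glutamate to folates, stood at 45.7, 95.0, 45.4 and 109 CPM (1.16 ± 0.14). Fpgs overlaps the endothelial receptor gene Eng on the opposite strand, which stood at 86.2, 133, 88.1 and 139.9 CPM, so the reads of the 2 genes cannot be told apart here. The rest of the 15 genes with the widest gaps were Yae1d1, Ildr2, Lrtm1 and Rn4.5s, a small repeated RNA gene with many copies.

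**Figure D2:**
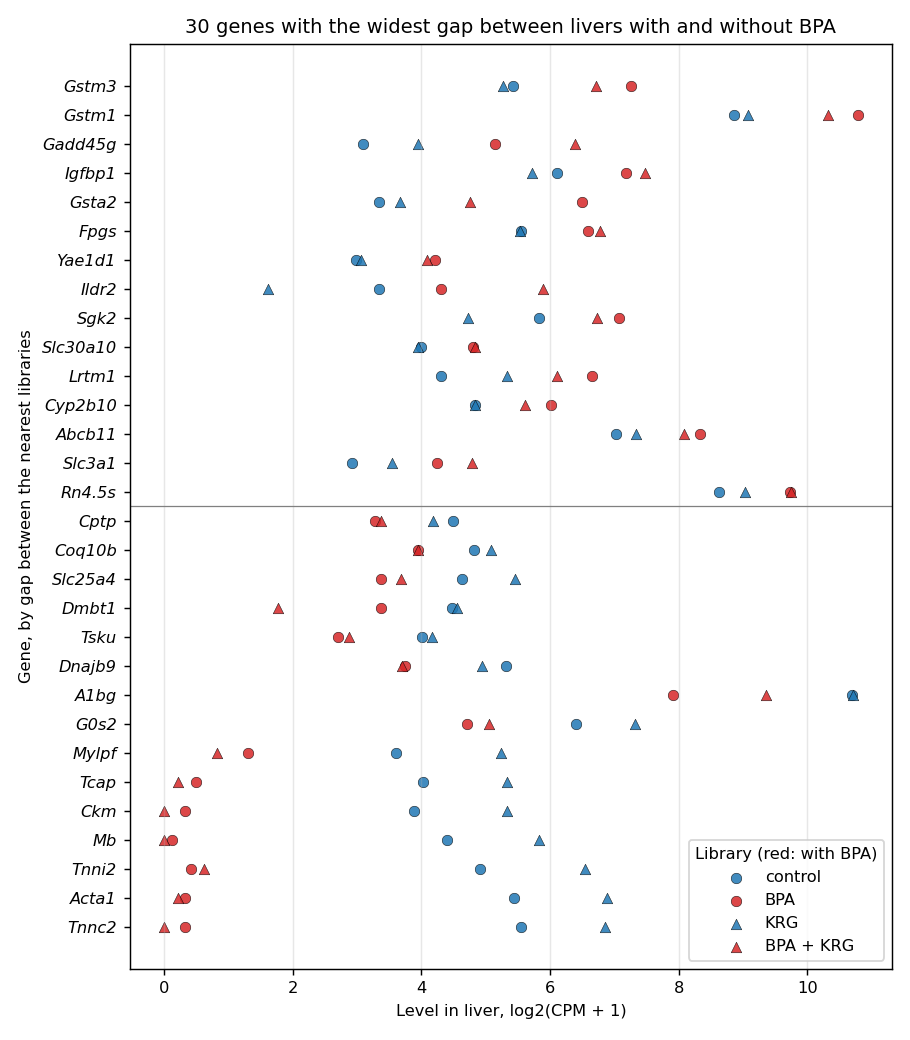
Level in each liver library, log2(CPM + 1), for the 15 genes with the widest gap in each direction, with 1 point per library, circles without ginseng, triangles with it, and red for BPA. Gstm3 and Gstm1 have the widest gaps among the higher genes (1.29 and 1.26) and 7 skeletal muscle genes have the widest among the lower genes (-2.29 to -5.22).

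Among the lower genes, the 7 with the widest gaps were all skeletal muscle markers. Tnnc2, the fast muscle troponin C, stood at 45.6, 0.25, 114 and 0 CPM, and Acta1, skeletal alpha-actin, at 42.5, 0.25, 117 and 0.15 CPM. All 7 measured markers of the list (with Tnni2, Mb, Ckm, Tcap and Mylpf) were separated lower. They reached a mean of 10 CPM only through the 2 libraries without BPA, so their direction was close to fixed by the filter. Most markers below the filter were lower with BPA as well, while Neb overlapped at 4.35, 6.39, 5.84 and 3.10 CPM. Slc25a4, the mitochondrial ADP/ATP carrier of muscle and heart, stood at 23.7, 9.34, 42.8 and 11.8 CPM, and Des, the muscle intermediate filament that also marks stellate cells, at 14.6, 8.44, 22.1 and 5.89 CPM. In both the KRG library was the highest and the libraries with BPA the lowest, the same order of sides as in the muscle markers, and the part of muscle RNA in their values was not tested. In bulk tissue, fewer cells of a type and less RNA per cell cannot be told apart, and the source of the muscle transcripts in these liver libraries was not tested. With muscle, acinar and erythroid markers and Rn45s left out before scaling, 6 genes were lower with a gap of at least 1. Rn45s alone held 8.30% to 12.4% of the counts of the liver libraries.

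Of the genes outside that list, G0s2, an inhibitor of adipose triglyceride lipase, had the widest gap and stood at 83.9, 25.1, 159 and 32.0 CPM (-2.09 ± 0.35). It overlaps Lamb3 on the opposite strand. A1bg, a plasma glycoprotein gene with female-biased expression in mouse liver, stood at 1663, 239, 1672 and 655 CPM (-1.90 ± 0.49), but it was the only one of 25 measured female-biased genes to be separated lower, beside 1 separated higher. Tsku, a secreted leucine-rich protein, stood at 15.1, 5.49, 16.8 and 6.35 CPM. Cptp, a ceramide-1-phosphate transfer protein, stood at 21.4, 8.69, 17.0 and 9.30 CPM. Dmbt1, a secreted scavenger receptor protein, stood at 21.3, 9.34, 22.4 and 2.40 CPM, and Coq10b, a coenzyme Q binding protein, at 27.3, 14.3, 32.8 and 14.3 CPM. In Tsku, Cptp and Coq10b the libraries of a side differed by far less than the sides did.

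Glucose and lipid genes did not form a uniform group. Pck1, the rate-limiting enzyme of gluconeogenesis, stood at 2006, 1204, 2241 and 1156 CPM (-0.85 ± 0.16), a gap of -0.74. Of 25 measured glucocorticoid and fasting genes 6 were separated lower, Pck1 and Txnip among them, and 2 were higher, namely Igfbp1 and Gadd45g, with a median difference of -0.10. The pairs of this list were opposite, with member medians of 0.51 for BPA minus control and -0.40 for combined minus KRG. Of 15 measured insulin-induced genes 3 were separated lower (G0s2, Nr0b2 and Elovl6) and 0 higher, with a median difference of -0.35, while Srebf1 and Fasn had overlapping sides. Of 23 measured PPAR-alpha targets 5 were separated lower and 0 higher, with a median difference of -0.06. Fabp1, the liver fatty acid binding protein, was one of the 5, at 6974, 4603, 5867 and 3659 CPM.

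Of the chaperone lists, those of the ER and the cytosol had more members separated lower than higher, while many members overlapped. In the ER list 6 of 17 measured members were separated lower and 1 higher, with a median difference of -0.21, and 10 had overlapping sides. Dnajb9, an ER co-chaperone of the unfolded protein response, stood at 38.8, 12.5, 29.7 and 12.0 CPM (-1.49 ± 0.19), with the 2 libraries with BPA level. Syvn1, the ubiquitin ligase that marks misfolded ER proteins, stood at 137, 39.6, 70.9 and 61.7 CPM, so its gap was only -0.20 and the control library stood apart from the other 3. Manf stood at 71.3, 37.9, 43.7 and 32.3 CPM, and Sdf2l1 at 20.5, 13.9, 19.2 and 10.9 CPM. Hspa5 (BiP), the main ER chaperone, had overlapping sides at 2773, 2124, 2069 and 1779.6 CPM, and Xbp1 overlapped too. Calr was the separated higher member, by a gap of 0.03.

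In the cytosolic heat shock list 7 of 12 measured members were separated lower, 0 were higher and 5 overlapped, with a median difference of -0.39. Hsph1, a large chaperone that recharges HSP70, stood at 75.2, 44.8, 84.9 and 31.7 CPM (-1.07 ± 0.21). Dnaja1, an HSP70 co-chaperone, stood at 387, 290.1, 359 and 274 CPM, and Chordc1, a partner of HSP90, at 66.5, 52.0, 76.7 and 42.9 CPM. The member medians of the 2 pairs were unequal, at -0.02 for BPA minus control and -0.57 for combined minus KRG. The summed level of the list was 6371, 7012, 6676 and 5260.1 CPM, so it was higher with BPA than in control and lowest in the combined library. Hspa1b, the stress-inducible HSP70, was near level in control and BPA (13.8 and 13.4 CPM) and stood at 22.0 CPM with KRG and 2.94 CPM in the combined library.

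The ER chaperone promoters are shown because of the 5 lists searched this one shared a motif in the largest share of its promoters. The ER stress response element, CCAAT and CCACG with 9 bases between them, on both strands of the 250 bases before the start, occurs in 7 of the 15 ER list members with a promoter entry (Calr, Canx, Dnajc3, Hsp90b1, Hspa5, Pdia6 and Syvn1) and in 0.13% of all genes with one. The element did not follow the direction in liver, since among its carriers Hsp90b1, Pdia6 and Syvn1 were separated lower, Calr higher, and Canx, Dnajc3 and Hspa5 overlapped. Capitals mark the element in chr2:34772005-34772063 (plus strand) for Hspa5, in chr19:6046512-6046570 (plus strand) for Syvn1, and at 2 places in chr10:86705513-86705676 (minus strand) for Hsp90b1, the second match on the opposite strand. By GENCODE, Hspa5 starts 120 bases upstream of the RefSeq start, so its match lies within the gene.
Hspa5: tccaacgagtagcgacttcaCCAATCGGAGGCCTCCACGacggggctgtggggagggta
Syvn1: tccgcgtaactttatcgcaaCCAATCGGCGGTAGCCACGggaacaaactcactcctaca
Hsp90b1: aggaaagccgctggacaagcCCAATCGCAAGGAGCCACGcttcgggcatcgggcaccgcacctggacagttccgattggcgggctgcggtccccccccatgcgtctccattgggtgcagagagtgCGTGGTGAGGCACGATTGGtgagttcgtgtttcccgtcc
For heat shock elements (GAA, TTC and GAA, or TTC, GAA and TTC, each with 2 bases between the parts, on both strands), 2 of 9 heat shock members with an entry held a match (Hspd1 and Hspe1), against 0.514% of all genes with one.

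**Figure D3:**
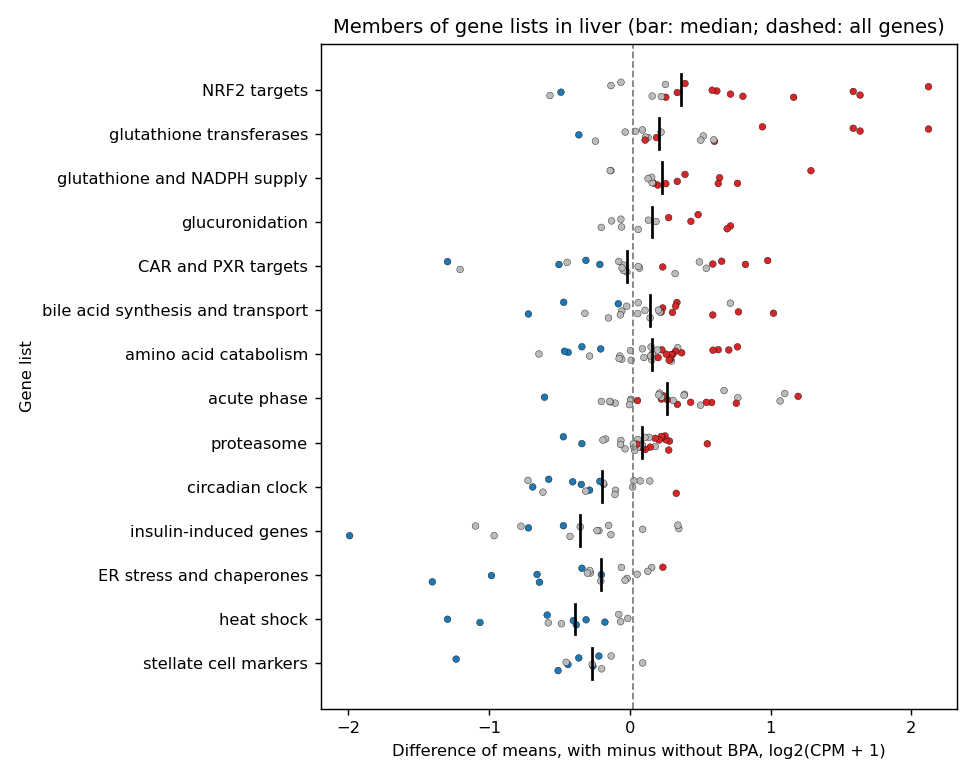
Difference of means (with minus without BPA, log2(CPM + 1)) for the measured members of 14 gene lists, with 1 point per gene, red where separated higher, blue where separated lower and grey where the sides overlap. Black bars are list medians, at 0.36 for NRF2 targets and -0.39 for heat shock, and the dashed line is the median of all genes, 0.02.

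Of 11 measured stellate cell markers 6 were separated lower and 0 higher, with a median difference of -0.27. Colec11, a collectin of stellate cells, stood at 57.6, 37.2, 58.1 and 43.8 CPM, and the fibrillar collagen gene Col3a1 at 27.5, 18.9, 23.0 and 17.7 CPM. Lrat, Reln and Bgn had overlapping sides, and Des, also in the list, is a muscle gene. Of 18 measured clock genes 6 were separated lower and 1 higher, with a median difference of -0.20. Wee1, a mitotic kinase under clock control, stood at 13.96, 7.62, 14.9 and 9.61 CPM and Per2 at 29.7, 18.1, 23.4 and 21.3 CPM, while the core clock repressor Cry2 was the higher one (34.6, 46.4, 32.4 and 38.7 CPM). The time of day of collection is not given in the labels.

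Of 15 measured estrogen-responsive genes 1 was separated higher and 1 lower (Lifr), with a median difference of 0.04. That median balances opposite pairs, at -0.27 for BPA minus control and 0.32 for combined minus KRG. Lifr, the receptor for leukemia inhibitory factor, stood at 566.5, 182, 209 and 163 CPM, so the control library stood apart from the other 3. Esr1, the estrogen receptor gene, had overlapping sides at 24.3, 12.6, 17.2 and 23.5 CPM.

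**Figure D4:**
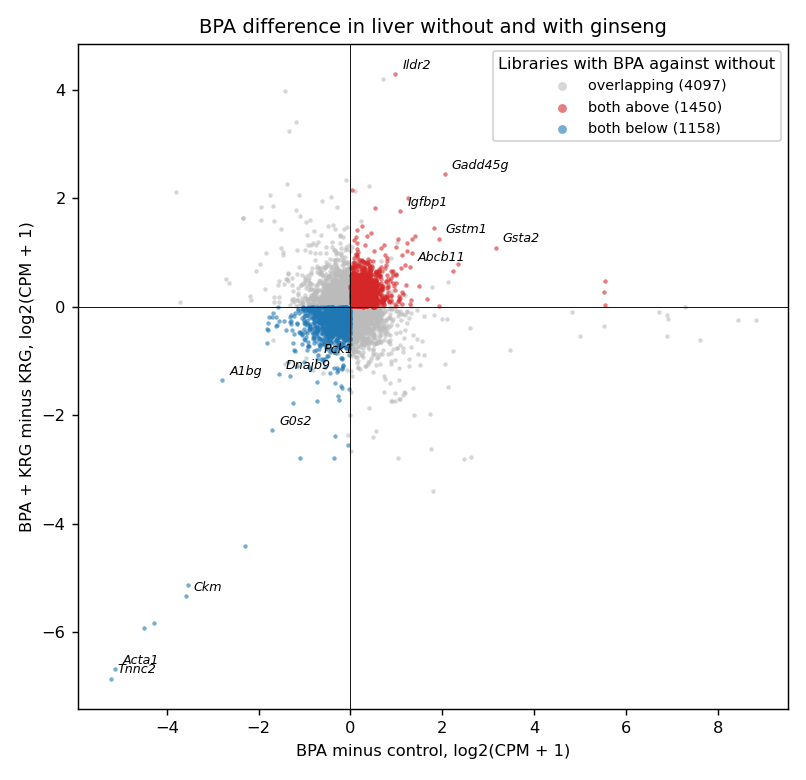
Log2(CPM + 1) difference of BPA minus control (x axis) against combined minus KRG (y axis) for 6705 genes in liver, red where both libraries with BPA lie above both without (1450 genes), blue where both lie below (1158 genes) and grey where the sides overlap (4097 genes). Muscle genes lie at the lower left, and the 7 measured muscle markers have a median of -4.29 on the x axis and -5.83 on the y axis. These markers passed the filter only through the libraries without BPA.

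The same comparison in uterus shares no library with the liver comparison, but the labels do not give whether both tissues came from the same animals, so the tissues may not be independent. Among 5968 genes measured in both tissues, 1270 were separated higher in liver, and 266 of them (20.9% of the liver list, 19.9% of the 1335 in uterus) were separated higher in uterus too, while 324 (25.5%) were separated lower there. Of 1061 separated lower in liver, 234 (22.1%, and 15.5% of the 1506 in uterus) were lower in uterus and 267 (25.2%) higher. The background in uterus was 22.4% higher and 25.2% lower, so the shared shares were near the background.

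The lists differed in what their liver-separated members did in uterus, and those given here were chosen after their values were seen. Of the 11 NRF2 targets separated higher in liver, 9 were measured in uterus, and 7 were separated higher there (Gstm1, Nqo1, Ugdh, Htatip2, Ephx1, Gclc and Srxn1). Gstm1 stood in uterus at 139.8, 1528, 98.0 and 2556 CPM and Nqo1 at 3.58, 31.0, 5.43 and 58.1 CPM, each with the combined library highest. Of the 7 heat shock genes separated lower in liver, 5 of 7 measured were separated lower in uterus (Hsph1, Hspa8, Hsp90aa1, Dnaja1 and Hspe1), with Hsph1 at 47.0, 30.3, 59.7 and 30.4 CPM. By contrast, of the 9 glutathione and NADPH supply genes 6 were measured in uterus, where 1, Gclc, was separated higher and 1, Ggct, lower. Other lists turned round. Of the acute phase genes separated higher in liver 5 were measured in uterus, with 0 higher and 4 lower there, and of 6 periportal genes 0 were higher and 5 lower. Arg1, 1 of these periportal genes, stood in uterus at 28.1, 7.34, 58.7 and 7.28 CPM, the order of the summed hepatocyte markers given below. The part of liver transcripts in these uterus values was not tested. Of 76 measured ribosomal protein genes 9 were separated higher in liver (11.8%) and 18 lower (23.7%). Of the 9 higher ones 0 were higher and 8 lower in uterus, and of the 18 lower ones 17 were lower there too. These genes were thus mostly lower in uterus whichever their side in liver.

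edgeR's test of the interaction between tissue and BPA, which treats the 8 libraries as independent, called 300 of 6705 genes (4.47%) at an adjusted p under 0.05, 230 with the liver difference above that of uterus (3.43%) and 70 below (1.04%). Of these, 228 (76%) had a liver mean over 10 times the uterus mean, as had 8.56% of all genes tested. Hepatocyte markers summed to 883, 81.7, 2003 and 72.0 CPM in the uterus libraries, so liver transcripts were more abundant in the uterus libraries without BPA. With genes of that ratio left out, 0 were called above and 26 below. Muscle markers in uterus summed to 133, 260.1, 122 and 2154 CPM, opposite in side to liver.

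**Figure D5:**
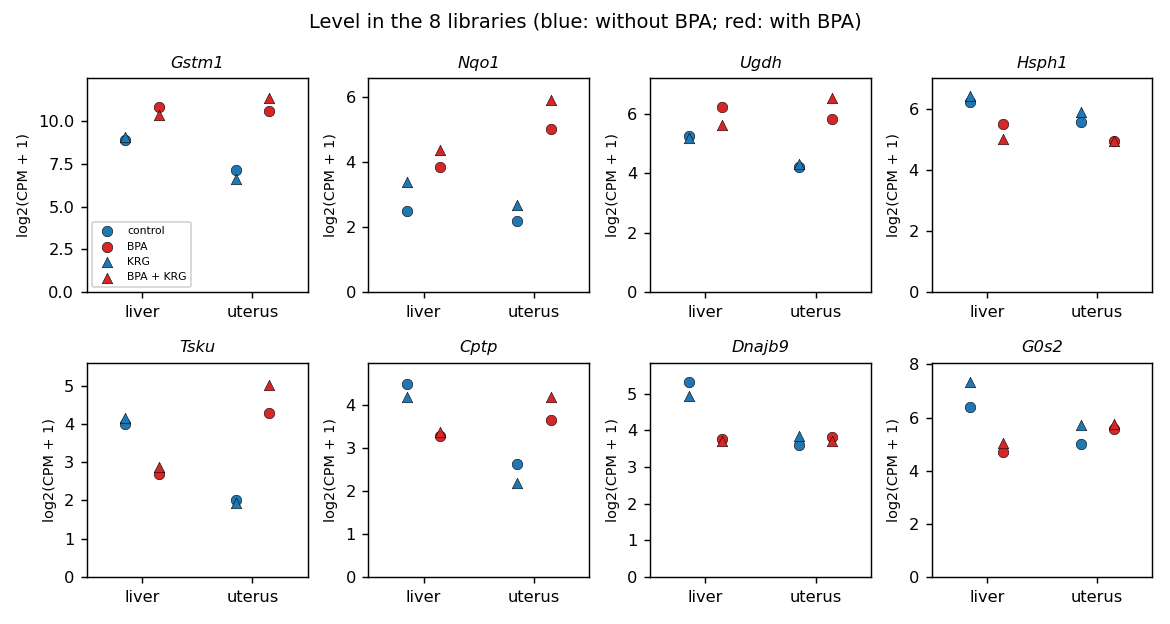
Level of 8 genes, log2(CPM + 1), in the 4 liver and 4 uterus libraries, with blue points without BPA, red points with it, circles without ginseng and triangles with it. Gstm1, Nqo1 and Ugdh are higher and Hsph1 lower with BPA in both tissues, whereas Tsku and Cptp are lower in liver and higher in uterus.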

How the data were processed

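The authors deposited raw counts per gene (23282 rows, 1 file per library), made from libraries of 500 ng total RNA per the labels. Bowtie2, edgeR and mm10 are named in the submitters' processing notes, with neither version nor role. The read counter, multiple matches and strand use were not given in the sources used here. Counts were scaled by the trimmed mean of M values within each tissue and tested with edgeR 4.0.16 (R 4.3.3), 1 term for BPA over the 4 liver libraries. Genes needed a mean of 10 CPM. DESeq2 1.42.0 and a fit with ginseng were alternatives. Named genes were the 15 with the widest gap in each direction, up to 4 separated members per direction and 3 by difference in each of 58 lists, 12 fixed genes and the 5 with the smallest interaction p. Part of them is described, and some results are not reported here. Eng and Prepl were added after values were seen, as were the motifs. Members and lists were chosen with earlier results of these data known. Coordinates are from GENCODE M21, on the build of mm10, and promoters from RefSeq. P-values measure the spread between these libraries, which may be technical.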

Additional observations from a re-analysis of the deposited data

Results flagged for a closer look

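The 19 genes below were named genes whose BPA difference in liver differed from that in uterus by edgeR's interaction test (adjusted p from 0.00298 to 0.0381 over 8 libraries treated as independent). Values are the fitted log2 difference in liver minus that in uterus.

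Muscle genes were lower with BPA in liver, and 6 of the 7 were separated higher with it in uterus. Mb was the exception, at 6.80, 6.79, 0.90 and 66.4 CPM there (control, BPA, KRG, combined). The interaction was -14.4 for Tnnc2, -12.9 for Mb, -12.5 for Ckm, -11.9 for Acta1, -9.53 for Mylpf, -9.05 for Tnni2 and -8.87 for Tcap. Several libraries were at 0 counts for some of these genes, so the size depends on the prior count.

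Genes with a higher level in liver than in uterus were next. The interaction was 7.76 for Abcb11, 7.35 for A1bg, 6.26 for Cyp3a11, 5.29 for Lrtm1, 3.61 for Sgk2 and 3.13 for Slc30a10. In uterus, Abcb11 stood at 2.34, 0.069, 7.73 and 0 CPM and Cyp3a11 at 15.2, 0.42, 27.4 and 0 CPM in the order control, BPA, KRG and combined, the order of the hepatocyte markers there. The part of liver transcripts in the uterus libraries was not tested.

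The remaining genes were expressed in both tissues. Tsku (-4.55) stood in uterus at 3.07, 18.7, 2.80 and 31.6 CPM and Cptp (-2.84) at 5.19, 11.6, 3.54 and 17.1 CPM, higher with BPA where liver was lower. Gstm1 (-2.52) was higher with BPA in both tissues and more so in uterus. G0s2 (-2.41), Dnajb9 (-1.56) and Coq10b (-1.41) were lower with BPA in liver. In uterus Dnajb9 stood at 11.04, 13.1, 13.4 and 12.1 CPM, with overlapping sides.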

How the results depend on the processing

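All 30 genes with the widest gaps kept their side under every alternative tried, except that the 7 muscle markers are absent where markers were left out. These genes were chosen for their wide gaps, so keeping their side was close to fixed in advance. A change of pseudocount or of the filter cannot move a side, and leaving out 1 library can do so only through rescaling. The median difference over all genes, 0.02, changed sign with total count scaling (-0.0053), with no filter (-0.014) and without the BPA library (-0.0025). With a mean of at least 1 CPM and with no filter, separated genes numbered 2205 and 2774 higher and 2134 and 3043 lower, and gaps of at least 1 numbered 14 and 14 higher and 34 and 36 lower. A pseudocount of 5 CPM left 4 higher, and leaving out markers and Rn45s left 6 lower. Leaving out 1 library gave 2310 to 2739 separated higher and 2058 to 2386 lower, with 27 to 39 and 20 to 62 gaps of at least 1, since 1 library on a side separates more easily. edgeR called 7 higher and 25 lower with no filter, DESeq2 15 and 26, and DESeq2 with a ginseng term (added after seeing the data) 12 and 14. edgeR with a ginseng term called 0, with 359 genes at an unadjusted p under 0.05. Leaving out 1 library gave edgeR 0 to 1 higher (1 without the combined library) and 0 to 3 lower (3 without control). Of the interaction calls, 0 above and 26 below remained in number without liver-dominated genes (added after seeing the data), 41 below with a ginseng term, and 162 to 202 above and 31 to 66 below without 1 library. The share of separated genes that were higher was 55.6%, against 50.7% with total count scaling, 47.7% with no filter and 49.2% without the BPA library. No paired analysis was possible because the labels number no replicates, while the fits with a ginseng term set BPA against control and combined against KRG. Depth limits genes near 10 CPM to a counting error of 8.0% to 9.05%, wider than many gaps.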
